A study of Labeotropheus fuelleborni and Maylandia zebra with 12 samples.

Results

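The Lake Malawi cichlid Maylandia zebra, a rock-dwelling fish that replaces its teeth throughout life, was examined in 2 oral tissues. Replacement tooth was compared with taste bud epithelium in 6 of the 12 libraries of the study, chosen by species: tooth replicates 0, 1 and 3 and taste bud replicates 1, 2 and 3. The tooth libraries hold unerupted teeth taken with forceps from crypts inside the jaw bone, after the soft tissue outside the bone had been cut away. The taste bud libraries hold a narrow strip of surface epithelium from the lip side of the outer tooth row of the lower jaw. Neither group carries a treatment or a genetic change in the labels, which give no age. The labels do not say whether libraries came from separate fish, and p-values therefore measure only how far these libraries spread, which may be technical. The strip is bulk tissue in which taste buds are a part only, and a tooth holds dental epithelium, pulp, odontoblasts and adherent bone cells. Fewer cells of a type and less RNA per cell cannot be told apart in such samples.

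A tooth forms where dental epithelium meets mesenchyme. Odontoblasts of the mesenchyme lay down a matrix of type I collagen that is then mineralised with calcium phosphate, and Hedgehog, Wnt, BMP and ectodysplasin signals shape the germ. Taste buds are clusters of sensory cells within a stratified epithelium, and both the sensory cells and the surrounding keratinocytes are renewed from basal cells.

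Read counts at gene features were few. Totals were 155864, 184675 and 196861 in tooth, against 72226, 85872 and 111155 in taste bud, so that every tooth library was deeper than every taste bud library. Between 12602 and 13975 features had a count in a tooth library and between 5979 and 8502 in a taste bud library. After scaling, 1 count was worth 6.09 to 8.05 CPM (counts scaled to a common library size) in tooth and 11.6 to 18.7 CPM in taste bud. Log2 CPM correlated at 0.865 to 0.914 within tooth, 0.845 to 0.890 within taste bud and 0.150 to 0.282 between tissues over tested features, which share their libraries' depth. Tooth replicate 0 and taste bud replicate 2 lay farthest from the other libraries of their tissue. Among genes that every cell uses, levels differed by list. The 7 glycolysis genes named in the table, none of them tested, summed to 96 counts (185 to 268 CPM per library) in tooth against 9 (16.1 to 74.9 CPM) in taste bud. Cytosolic ribosomal protein genes summed to 22020 to 32300 CPM per library in tooth and 19250 to 28040 CPM in taste bud. Features with only a locus number, which no list could match, held 45.8% to 60.5% of a library's counts. The kit marks strand, but how the reads were counted with respect to strand was not given in the sources used here, so reads of a named gene and of an antisense partner may not have been told apart.

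To ask which genes set the tissues apart, 1839 features with enough counts were tested in the 6 libraries with edgeR's quasi-likelihood test, with a Benjamini-Hochberg adjusted p of 0.05 as threshold. In all, 931 features (50.6%) passed, 598 (32.5%) in favour of tooth and 333 (18.1%) in favour of taste bud. Every list below has to be read against these shares. Of 979 tested features with a gene name, 339 passed in favour of tooth and 152 in favour of taste bud. All 3 tooth libraries lay above all 3 taste bud libraries for 696 tested features (37.8%), and the reverse held for 408 (22.2%). The median log2 fold change (log2FC), tooth over taste bud, was 0.29 over all features tested, and it is 0.36 higher when total counts alone set the scale. A feature could pass the filter on the counts of 1 tissue alone: 7 tested features had 0 counts in tooth, against 108 with 0 counts in taste bud. With the tooth libraries thinned to the deepest taste bud total, a fit that was not planned, 771 of 1546 features passed, 473 higher in tooth and 298 in taste bud.

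**Figure D1:**
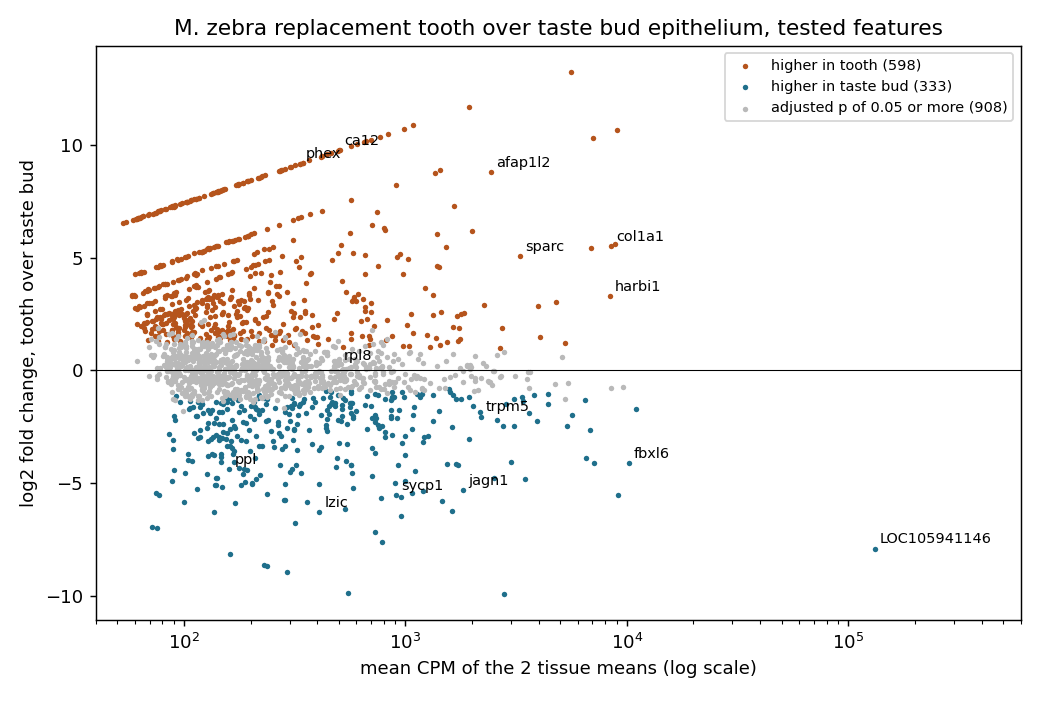
Each point is 1 tested feature, with the mean of the tooth and taste bud CPM means on a log axis and the log2 fold change, tooth over taste bud, on the vertical axis; colours give the call of the edgeR test. Of 1839 features, 598 passed in favour of tooth and 333 in favour of taste bud, and the straight upper line of points holds features with 0 counts in taste bud, whose fitted fold change depends on the prior count.

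In the sentences that follow, counts stand in the order tooth replicates 0, 1 and 3, then taste bud replicates 1, 2 and 3. Folds compare the counts summed over a tissue's 3 libraries, scaled for depth. With no count in a tissue, a floor of 3 counts for that tissue as a whole, the 95% counting limit, takes its place, and the fold is written as at least that large. It leaves out the spread between libraries. Where a tissue had 1 to 3 counts, the 95% interval of the ratio stands in parentheses and covers counting error only.

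Among the 12 named genes with the lowest p in favour of tooth, genes of very different roles stood side by side, and none had more than 22 taste bud counts in all. The actin-associated adaptor gene afap1l2 had 506, 851 and 815 counts in tooth, against 1, 0 and 1 in taste bud, giving a ratio of 496 (137 to 4097). Hepsin, hpn, a membrane-bound serine protease, had 207, 334 and 245 counts in tooth, against 2, 4 and 5 in taste bud, 32.6-fold in favour of tooth (log2FC 5.01 with SE 0.44, adjusted p = 3.99e-06 by edgeR). The gap junction gene gja1 (connexin 43) had 175, 123 and 197 counts in tooth, against 0, 0 and 1 in taste bud, giving a ratio of 226 (40.4 to 8944). Tooth and taste bud libraries did not overlap for any of these genes, a condition of the rule that chose them. The magnesium transporter gene slc41a2 had a ratio of 91.3 (31.1 to 444), with 257, 116 and 227 counts in tooth against 2, 0 and 1 in taste bud. The potassium channel partner gene dpp6 was 23.97-fold higher, with 501, 337 and 317 counts in tooth against 5, 11 and 6 in taste bud. The endoplasmic reticulum protein gene txndc5 was 29.98-fold higher and ociad2 38.7-fold. For mthfsd the fold was 51.8, and the ratio was 73.5 (25.0 to 358) for nt5dc1. Without the taste bud library that held the only count, the fitted log2FC of gja1 was 9.96 (replicate 3 left out), against 7.55. For slc41a2 and nt5dc1 it was 7.36 and 7.03 without taste bud replicate 1, 5.79 and 5.46 without replicate 2, and 6.44 and 6.11 with all libraries. It was 8.15 without taste bud replicate 2 for afap1l2 (8.78 with all libraries). The genes ca12 and col10a1, also among the 12, are described with their groups.

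Collagen genes were among the most abundant named genes in tooth. Of 10 tested fibrillar and matrix collagen genes, 9 were higher in tooth, 0 were higher in taste bud and col6a6 did not pass. The chains col11a1, col22a1 and col27a1 had 0 or 1 taste bud counts and entered the test through their tooth counts. With no filter on low counts, 10 of 13 members were called for tooth and 0 for taste bud. Type I collagen forms the fibres of dentin and bone, and its 2 chains were at 10841, 17452 and 21498 CPM for col1a1 in tooth, against 806, 112 and 208 CPM in taste bud. This was a 50.8-fold difference (log2FC 5.50, SE 0.66, adjusted p = 3.11e-05). For col1a2 the CPM values were 8279, 14842 and 17073 in tooth, against 674, 112 and 185 in taste bud, 47.3-fold. Taste bud replicate 1 had the highest taste bud level of both chains, and without it the log2FC was 6.49 for col1a1 and 6.29 for col1a2. Collagen X, col10a1, in mammals a product of hypertrophic cartilage and in teleosts also of bone-forming cells, had 135, 281 and 305 counts in tooth, against 0, 0 and 4 in taste bud, 82.3-fold. Its log2FC was 6.30 (SE 0.69), and 5.71, 5.64 and 10.44 without taste bud replicate 1, 2 or 3. The fibril-nucleating chain col11a1 had 52, 63 and 60 counts in tooth, against 0, 0 and 1 in taste bud. The beaded-filament chains col6a1 and col6a2 were 21.3-fold and 20.1-fold higher in tooth, and without taste bud replicate 1 or 2 the log2FC of col6a1 was 4.93 or 3.604, against 4.29 with all libraries. Levels of col6a6 overlapped between the tissues, with 16, 26 and 18 counts in tooth against 2, 22 and 17 in taste bud (adjusted p = 0.48). For col22a1, a collagen of tissue junctions, counts were 14, 52 and 72 in tooth against 0 in all 3 taste bud libraries, a difference of at least 21.0-fold. The remaining called chains were col16a1 (13.3-fold) and col27a1, with 34, 73 and 66 counts in tooth against 1, 0 and 0 in taste bud. Fitted values of chains with 1 taste bud count moved with single libraries: col11a1 had a log2FC of 8.45 without taste bud replicate 3 (6.04 with all libraries), and col27a1 had 8.47 and 5.14 without taste bud replicate 1 and 3 (5.96). The list's median log2FC was 5.45, or 4.90 with col22a1 at its lower bound.

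Enzymes and chaperones that mature collagen were higher in tooth too. Of 11 tested genes of collagen maturation and matrix-binding proteins, 10 were higher in tooth, 0 were higher in taste bud and loxl2, a crosslinking oxidase, did not pass (126 ± 54.9 CPM in tooth against 119 ± 58.5 in taste bud, SD, n = 3 each). The lysyl hydroxylase gene plod2 had 82, 103 and 96 counts in tooth against 0 in taste bud, a difference of at least 42.8-fold. The prolyl hydroxylase gene p3h1 had 27, 37 and 50 counts in tooth, against 0, 2 and 0 in taste bud. The collagen chaperone gene serpinh1 had 17, 19 and 32 counts in tooth, against 0, 1 and 2 in taste bud, giving a ratio of 10.3 (3.39 to 51.4). These enzymes act on newly made chains inside the cell. Smaller differences were measured for colgalt1, which adds galactose to collagen (3.75-fold), and p4hb, a disulfide isomerase and prolyl hydroxylase subunit (6.25-fold). The cyclophilin gene ppib, part of the same complex as p3h1, was 19.4-fold higher, with a log2FC of 4.24 (SE 0.68), and 3.57 or 5.44 without taste bud replicate 2 or 3. The products of the small proteoglycan genes lum, dcn and bgn bind collagen fibrils. Summed over each tissue's libraries, lum had 298 counts in tooth against 1 in taste bud, dcn 497 against 6 and bgn 240 against 0. The glycoprotein gene sparc, a collagen and calcium binder, was at 4599, 6278.5 and 8247.5 CPM in tooth, against 431, 0 and 162 in taste bud, 35.7-fold. Leaving out taste bud replicate 2 or 3 gave p3h1 a log2FC of 7.86 or 3.65 (4.52 with all libraries), leaving out replicate 3 gave lum 9.15 (6.76), and leaving out replicate 2 gave dcn 4.53 (5.20). For sparc the log2FC was 5.05 (SE 0.77), and 5.99 or 4.33 without taste bud replicate 1 or 2.

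**Figure D2:**
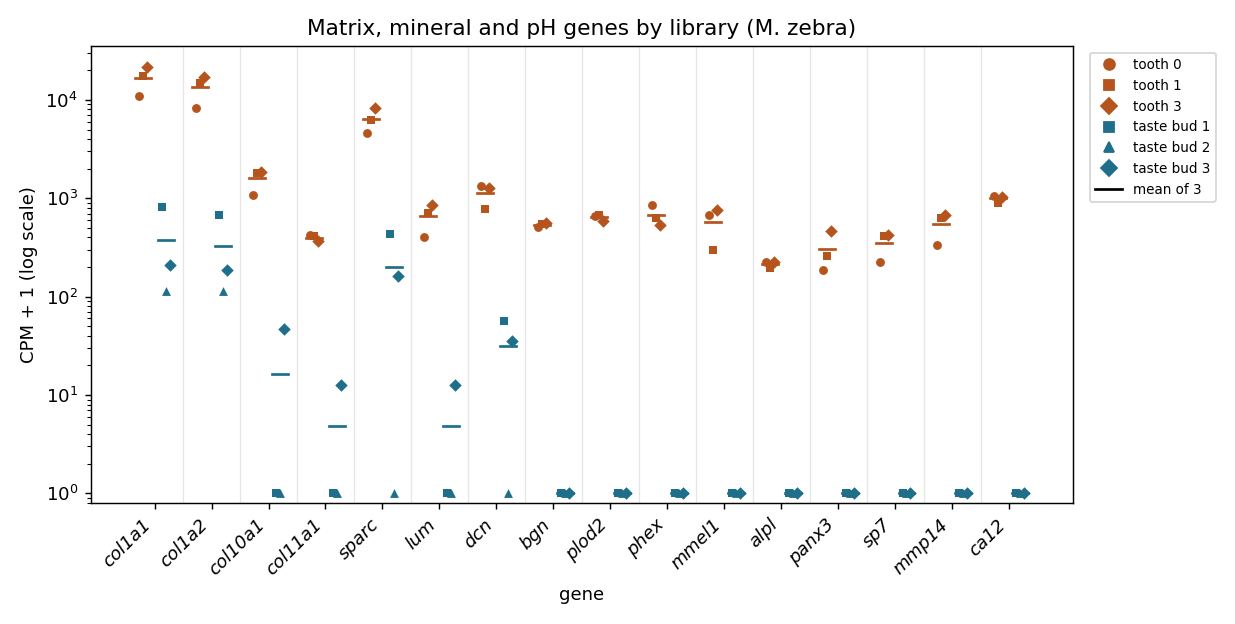
CPM + 1 on a log axis for 16 matrix, mineral, protease and pH genes, with 1 symbol per library, tooth left and taste bud right for each gene, and a line at the mean of 3 libraries. All 16 genes lie higher in each tooth library than in any taste bud library, and genes such as plod2, phex and ca12 sit at 0 CPM, drawn at 1, in all 3 taste bud libraries.

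Most tested genes of mineral formation were also higher in tooth. The mineralization and enamel list has 20 genes in the table, of which 10 were tested. Of these, 8 were higher in tooth, 1 was higher in taste bud and ankh, a pyrophosphate exporter, did not pass. Among the 8, phex, mmel1, alpl, panx3, fam20a and entpd5 had 0 or 1 taste bud counts and entered the test through their tooth counts. The filter thus largely set their direction, and 8 of 10 cannot stand for the list. When low counts were not filtered, 11 of 17 members passed in favour of tooth and 1 in favour of taste bud. The peptidase gene phex, which governs phosphate balance in bone and dentin, had 105, 97 and 88 counts in tooth against 0 in taste bud, a difference of at least 44.1-fold. Its relative mmel1, a zinc endopeptidase, had 83, 46 and 124 counts in tooth against 0 in taste bud, at least 38.5-fold. Tissue-nonspecific alkaline phosphatase, alpl, frees phosphate from pyrophosphate and had 28, 30 and 37 counts in tooth against 0 in taste bud, at least 14.5-fold. No taste bud count was found either for the channel gene panx3 (23, 40 and 76 counts in tooth) or the pseudokinase gene fam20a (19, 14 and 21 counts in tooth). The nucleotidase gene entpd5, needed for bone mineral in zebrafish, had 25, 26 and 37 counts in tooth, against 0, 0 and 1 in taste bud, and a log2FC of 5.04, or 7.45 without taste bud replicate 3. The phosphate importer gene slc20a2 was 6.92-fold higher, with 22, 18 and 51 counts in tooth against 0, 0 and 6 in taste bud, and its log2FC of 2.79 (SE 0.83) was 2.19, 2.13 or 7.47 without taste bud replicate 1, 2 or 3. Its call was lost without both tooth replicate 0 and taste bud replicate 2 (adjusted p = 0.070). The tumour necrosis factor receptor gene relt, mutated in human enamel defects, was 4.43-fold higher, at 2432, 753 and 883 CPM in tooth against 318, 273 and 278 CPM in taste bud. Without tooth replicate 0, which stood above the other 2 tooth libraries, its log2FC was 1.43, against 2.22 with all libraries. The keratin-associated gene fam83h, also mutated in human enamel disease, went the other way, with 20, 25 and 20 counts in tooth against 36, 16 and 65 in taste bud, 3.94-fold higher in taste bud (adjusted p = 0.0036). The list's median log2FC was 5.89, or 3.45 with the genes at 0 in taste bud set to their bounds.

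Genes of ion and pH regulation came to few tested members. All 4 tested members of the pH list were higher in tooth, of 25 in the table. Here too genes with few or no taste bud counts were tested on their tooth counts. Without the filter, 6 of 21 members were called for tooth and 0 for taste bud. Carbonic anhydrase 12, ca12, a membrane enzyme that interconverts carbon dioxide and bicarbonate, had 131, 138 and 171 counts in tooth against 0 in taste bud, a difference of at least 67.0-fold. The related gene ca6, secreted in mammalian saliva, was 32.5-fold higher, with 109, 74 and 102 counts in tooth against 0, 0 and 4 in taste bud. Its log2FC was 5.03, and 4.38 or 9.18 without taste bud replicate 2 or 3. The chloride-bicarbonate exchanger gene slc4a2 had 14, 32 and 33 counts in tooth against 0 in taste bud, a difference of at least 12.0-fold. The 17 members below the filter that had a count included 11 subunits of the proton pump. They summed to 249 counts (461 to 718 CPM per library) in tooth against 52 (128 to 337 CPM) in taste bud. Taste bud libraries were shallower, and respiratory chain genes below the filter also summed higher in tooth (948 to 1297 against 401 to 625 CPM). Median log2FC over the 4 was 6.13, or 4.798 at the lower bounds. Of 2 tested calcium handling genes, the channel gene cacna1d was 8.87-fold higher in tooth, with 43, 48 and 45 counts in tooth against 4, 2 and 1 in taste bud, and its log2FC of 3.07 was 3.70 or 2.38 without taste bud replicate 1 or 3. The release channel gene ryr3 did not pass (adjusted p = 0.14).

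The tested metalloproteinase and inhibitor genes, of mixed roles, were higher in tooth as well. All 5 tested genes of metalloproteinases and their inhibitors, of 36 in the table, were higher in tooth. Of these, mmp14, mmp2, timp2 and adam23 had 0 to 2 taste bud counts and entered the test through their tooth counts. Their direction was thus largely set by the filter, and 5 of 5 cannot stand for the list. With no filter on low counts, 7 of 34 members were called for tooth and 0 for taste bud. The membrane collagenase gene mmp14 had 41, 97 and 112 counts in tooth against 0 in taste bud, a difference of at least 38.0-fold, and the gelatinase it activates, mmp2, had 49, 48 and 108 in tooth, against 0, 0 and 2 in taste bud. The inhibitor gene timp2, whose product joins both enzymes in 1 activating complex, had 49, 43 and 58 counts in tooth against 0 in taste bud, at least 22.8-fold. The adhesion gene adam23 had 28, 22 and 30 counts in tooth, against 0, 1 and 0 in taste bud. Leaving out taste bud replicate 2 or 3 gave log2FC values of 4.78 or 8.64 for mmp2 (5.397 with all libraries) and 7.39 or 4.09 for adam23 (4.91). The smallest difference, 2.25-fold for the blood protease gene adamts13 (adjusted p = 0.044), missed the threshold when any library but taste bud replicate 1 was dropped (adjusted p 0.0625 to 0.177). In all, adamts13 lost its call in 10 of 17 alternative fits. Of 5 tested genes matched by the start of an integrin symbol, 4 were higher in tooth. These were itga1, itgav, itgb5 and itgbl1, an integrin-like gene that is not an integrin chain. The hemidesmosome chain itgb4 did not pass. The vitronectin receptor chain itgav had 37, 38 and 57 counts in tooth, against 4, 0 and 4 in taste bud, 7.53-fold, and without taste bud replicate 2 its log2FC was 2.18, against 2.87 with all libraries. Without that library itgb5 had 2.34, against 2.98, and itgbl1 2.42, against 3.11. Without taste bud replicate 1 the log2FC was 5.24 for itgbl1 and 6.87 for itga1 (4.36 with all libraries), and without replicate 3 it was 2.41 for itgbl1 and 3.54 for itga1.

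Transcription factors of tooth and bone came next. Of 7 tested patterning factors, of 32 in the table, 5 were higher in tooth, 0 were higher in taste bud, and dlx3 and irx3 did not pass. Among the 5, sp7, tbx2, foxf1 and lhx8 had few or no taste bud counts and entered the test through their tooth counts. Their direction was thus largely set by the filter, and 5 of 7 cannot stand for the list. With no filter on low counts, 9 of 30 members were called for tooth and 0 for taste bud. Osterix, sp7, which drives odontoblast and osteoblast maturation, was at 226, 409 and 420 CPM in tooth against 0 in taste bud, a difference of at least 24.3-fold. The T-box gene tbx2 had 23, 56 and 66 counts in tooth, against 0, 0 and 1 in taste bud (log2FC 5.72, or 8.12 without taste bud replicate 3). The forkhead gene foxf1 was 7.08-fold higher, with 12, 24 and 26 counts in tooth against 2, 1 and 1 in taste bud. The jaw and tooth homeobox gene lhx8 was 7.53-fold higher, at 21, 42 and 36 counts in tooth against 5, 0 and 1 in taste bud. Its log2FC of 2.79 (adjusted p = 0.0086) was 4.70 or 2.10 without taste bud replicate 1 or 2, and the call was lost without taste bud replicate 3 (2.13, adjusted p = 0.068). The homeobox gene pitx1 was at 233 ± 25.4 CPM in tooth against 81.1 ± 12.1 in taste bud (SD, n = 3 each; log2FC 1.52, adjusted p = 0.019). Its call was lost without tooth replicate 0 (adjusted p = 0.053), taste bud replicate 1 (0.056) or taste bud replicate 3 (0.11), and in 7 of 17 alternative fits in all. The distal-less gene dlx3 had 15, 12 and 18 counts in tooth against 0, 4 and 16 in taste bud, so that the tissues overlapped. Of the 23 members below the filter with a count, 12 had no count in the shallower taste bud libraries. Below the filter the same held for 62 of 145 solute carrier genes and 15 of 49 respiratory chain genes. The 12 included the jaw homeobox gene dlx6 (5, 30 and 29 counts in tooth, a difference of at least 9.74-fold) and the paired box gene pax9 (4, 11 and 7, at least 3.35-fold). The osteoblast regulator runx2 had 8, 7 and 15 counts in tooth, against 0, 0 and 1 in taste bud.

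Signalling genes were sparse, and most were below the filter. Of 18 Hedgehog genes in the table, the 2 tested ones, scube2 and scube3, whose secreted products help release Hedgehog ligands in vertebrates, were higher in tooth. Counts of scube2 were 31, 26 and 18 in tooth against 0 in taste bud, and those of scube3 were 42, 52 and 88 in tooth against 0, 0 and 4 in taste bud. The log2FC of scube3 was 4.33, and 3.74, 3.68 or 8.47 without taste bud replicate 1, 2 or 3. Both genes entered the test through their tooth counts. When no filter on low counts was used, 8 of 16 Hedgehog genes were called for tooth and 0 for taste bud. Below the filter, 14 more members summed to 345 counts (419 to 943 CPM per library) in tooth against 12 (32.1 to 93.7 CPM) in taste bud. The ligand gene shh had 8, 13 and 14 counts in tooth against 0 in taste bud, a difference of at least 5.33-fold. Its receptor gene ptch1, also a target of the pathway, had 5, 30 and 33 counts in tooth against 0 in taste bud, at least 10.3-fold. The transcription factor gene gli1, another target, had 9, 37 and 30 counts in tooth, against 1, 0 and 1 in taste bud, giving a ratio of 17.3 (4.64 to 146). In both ptch1 and gli1, tooth replicate 0 was the lowest tooth library.

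Among Wnt genes 4 were tested, of which 3 passed in favour of tooth, and the agonist gene rspo3 did not pass (29, 33 and 33 counts in tooth against 12, 15 and 11 in taste bud). The secreted Wnt antagonist gene frzb had 93, 55 and 81 counts in tooth, against 0, 1 and 0 in taste bud, giving a ratio of 105 (18.6 to 4147), with a log2FC of 6.44, or 8.93 and 5.63 without taste bud replicate 2 and 3. The gene of beta-catenin, ctnnb1, the pathway's transducer and a part of cell junctions, was 5.08-fold higher, with 55, 54 and 58 counts in tooth against 6, 2 and 7 in taste bud. The ligase gene znrf3, which removes Wnt receptors, was 10.8-fold higher, and its log2FC of 3.32 was 4.04 or 2.65 without taste bud replicate 1 or 2. Of the 51 members in the table, 40 lay below the filter with a count. They summed to 475 counts (854 to 1290 CPM per library) in tooth against 75 (281 to 417.5 CPM) in taste bud. Among them, the stem cell receptor gene lgr6 had 6, 8 and 12 counts in tooth, against 0, 1 and 0 in taste bud, and the agonist gene rspo1 had 9, 9 and 13 in tooth, against 0, 0 and 1 in taste bud.

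Of 5 tested genes of the BMP and TGF-beta list, the latent TGF-beta binding protein genes ltbp1 and ltbp2 were higher in tooth, and bmp6, id1 and smad3 did not pass. The most abundant ligand gene of the list was bmp6, with 3532 ± 480.3 CPM in tooth against 2042 ± 445 CPM in taste bud (SD, n = 3 each; log2FC 0.79, adjusted p = 0.061). All 3 tooth libraries lay above all 3 taste bud libraries, and bmp6 passed with RLE size factors (adjusted p = 0.044), with total counts alone (0.010), with DESeq2 (0.019) and with limma-voom (0.049). Counts of ltbp1 were 19, 32 and 46 in tooth against 1, 0 and 2 in taste bud (log2FC 3.77, or 3.12 without taste bud replicate 2). Those of ltbp2 were 22, 14 and 16 in tooth against 0, 0 and 1 in taste bud (4.32, or 6.73 without taste bud replicate 3). Below the filter, bmp2 and bmp4 had 9 and 8 counts in tooth against 0 in taste bud, and the pseudoreceptor gene bambi had 14, 20 and 14 in tooth against 0 in taste bud, a difference of at least 7.30-fold. Of the FGF genes, the receptor gene fgfr2 was higher in tooth by 4.11-fold, with 21, 31 and 20 counts in tooth against 4, 0 and 4 in taste bud (adjusted p = 0.022), while fgf2 did not pass (36, 39 and 60 counts in tooth against 14, 33 and 41 in taste bud). The fgfr2 call was lost without tooth replicate 0 or 1 or taste bud replicate 2 or 3 (adjusted p 0.0528 to 0.0894). In all, fgfr2 lost its call in 7 of the 16 alternative fits that tested it (up to 0.115). Neither direction was called for the 1 tested Notch gene, jag1 (28, 15 and 24 counts in tooth against 3, 1 and 13 in taste bud). The Notch target gene nrarp, below the filter, had 17, 28 and 9 counts in tooth, against 1, 1 and 6 in taste bud. In the ectodysplasin list, relt (above) was higher in tooth, as was tnfrsf19, a receptor of the same family (8.39-fold, with 48, 50 and 49 counts in tooth against 0, 4 and 4 in taste bud). The adaptor gene traf6 was 9.31-fold higher in taste bud (5, 1 and 2 counts in tooth against 7, 7 and 20 in taste bud). Leaving out taste bud replicate 1 gave tnfrsf19 a log2FC of 2.44, against 3.07 with all libraries, and leaving out tooth replicate 0 gave traf6 -4.01, against -3.08. The ectodysplasin receptor gene edar had 8, 3 and 1 counts in tooth against 0 in taste bud.

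**Figure D3:**
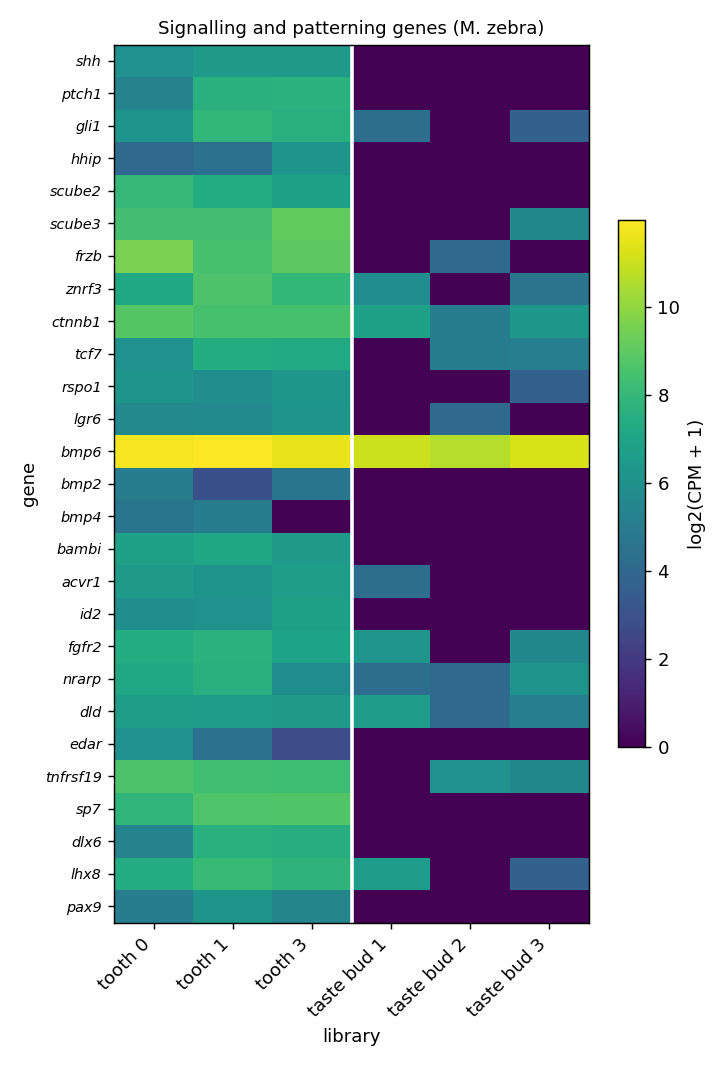
Colour gives log2(CPM + 1) for signalling and patterning genes (rows) in the 3 tooth and the 3 taste bud libraries (columns, tooth left of the white line). Rows such as shh, ptch1 and sp7 are dark, at 0, in all taste bud libraries, bmp6 is high in all 6 libraries, and ptch1 and dlx6 are lower in tooth replicate 0 than in tooth replicates 1 and 3.

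Genes of protein export moved in both directions. Of 12 tested secretory pathway genes, of 55 in the table, 7 were higher in tooth, 1 was higher in taste bud and 4 did not pass. Among the 7, tram2, srp14, sec23a and srp54 had 0 or 1 taste bud counts and entered the test through their tooth counts. Their direction was thus largely set by the filter, and 7 of 12 cannot stand for the list. With no filter on low counts, 13 of 54 members were called for tooth and 1 for taste bud. The coat gene sec23a, needed in zebrafish and humans to export collagen from the endoplasmic reticulum, had 28, 33 and 53 counts in tooth, against 1, 0 and 0 in taste bud, giving a ratio of 52.0 (9.16 to 2073). The translocation gene tram2, known to assist collagen synthesis, had 26, 60 and 35 counts in tooth against 0 in taste bud, a difference of at least 18.4-fold. Among the signal recognition particle genes, srp14 had 44, 26 and 56 counts in tooth against 0 in taste bud, and srp54 had 18, 25 and 42 in tooth against 1, 0 and 0 in taste bud. The cargo receptor gene ergic3 was 2.10-fold higher in taste bud, at 2398 ± 232 CPM in tooth against 5199 ± 1153 in taste bud (adjusted p = 0.012), and lost the call without tooth replicate 1 or 3 (0.055 and 0.10) and with total counts alone (0.058). The calls of sar1b (adjusted p = 0.020) and tmed10 (0.035) were also lost when some libraries were dropped, up to 0.16 without taste bud replicate 3 for sar1b and 0.155 without taste bud replicate 2 for tmed10. For sar1b taste bud replicate 2 (0.10) was the other such library, and without taste bud replicate 1 its log2FC was 3.90, against 2.27. In all, tmed10 lost its call in 10 of 17 alternative fits (adjusted p up to 0.178), and sar1b in 4 of the 13 that tested it. The log2FC was 7.88 or 4.55 for sec23a and 7.45 or 4.12 for srp54 without taste bud replicate 1 or 3, against 5.37 and 4.94 with all libraries. For ssr2, a translocation gene 7.51-fold higher in tooth, it was 3.84 or 2.12 without taste bud replicate 1 or 2, against 2.82. The vesicle tethering gene trappc1 was level, at 2455 ± 78.3 CPM in tooth against 2503 ± 679 in taste bud (log2FC -0.03, SE 0.33). Of 4 tested endoplasmic reticulum folding genes, the chaperone genes canx and hsp90b1 were 3.34-fold and 5.48-fold higher in tooth, and creb3l1 and xbp1, transcription factors of secretory load, did not pass (adjusted p = 0.21 and 0.086). In favour of tooth, xbp1 passed with total counts alone (0.048), with DESeq2 (0.043) and without taste bud replicate 1 (0.035), and creb3l1 passed with total counts alone (0.034). The call of hsp90b1 was lost without tooth replicate 0 or taste bud replicate 1 or 2 (adjusted p 0.0515 to 0.0542), with a log2FC of 3.97 without taste bud replicate 3 against 2.498, and that of canx without taste bud replicate 2 or 3 (0.068 and 0.125). In all, hsp90b1 lost its call in 5 of the 16 alternative fits that tested it (up to 0.114), and canx in 4 of 17.

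In the other direction, the 12 named genes with the lowest p in favour of taste bud held no classical taste or keratin gene. The gene jagn1, whose endoplasmic reticulum protein human neutrophils need, had 15, 8 and 15 counts in tooth, against 251, 151 and 308 in taste bud, 40.9-fold in favour of taste bud (log2FC -5.33 with SE 0.46, adjusted p = 3.63e-06 by edgeR). The gene gne, the rate-limiting enzyme of sialic acid synthesis, had 6, 8 and 11 counts in tooth against 63, 186 and 250 in taste bud, 43.7-fold. A chondroitin polymerising gene, chpf2, was 31.0-fold higher, with 3, 12 and 9 counts in tooth against 73, 177 and 90 in taste bud. The energy sensor gene prkaa2, which encodes a catalytic chain of AMP-activated kinase, had 4, 2 and 7 counts in tooth against 75, 88 and 51 in taste bud, 36.1-fold. The tubulin acetyltransferase gene atat1 was 16.2-fold higher in taste bud. No tooth library reached a taste bud library in any of the 12, again a condition of the rule. For lzic the counts were 2, 1 and 1 in tooth against 43, 63 and 52 in taste bud, an 86.5-fold difference. The chromatin remodelling gene nfrkb had 6, 3 and 7 counts in tooth against 46, 194 and 143 in taste bud. Others of the 12 were gtpbp6 (17.7-fold), aasdh (18.1-fold), fbxl6 and the meiotic gene sycp1 (46.4-fold, log2FC -5.54, or -6.16 without tooth replicate 0 and -4.91 without taste bud replicate 2).

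The most abundant named genes differed too. In tooth these were, by mean CPM, col1a1, harbi1, col1a2, pold2, sparc, rhobtb3, tmsb4x and fam35a. The transposase-derived gene harbi1 was at 15188 ± 900 CPM in tooth against 1573 ± 541 in taste bud, 10.2-fold (adjusted p = 3.11e-05). In taste bud they were fbxl6, fam35a, trmt2a, ugcg, fndc9, pus10, sap25 and il17d. The F-box gene fbxl6 was at 1098 ± 98.0 CPM in tooth against 19310 ± 11632 in taste bud, 17.0-fold, with 687, 2039 and 1064 counts in the taste bud libraries. The glucosylceramide synthase gene ugcg, whose lipid product feeds the barrier of surface epithelia, was 4.75-fold higher in taste bud, at 1361 ± 85.9 CPM in tooth against 6465 ± 1885 in taste bud. The cytokine gene il17d was at 929 ± 78.9 CPM in tooth against 5249 ± 531 in taste bud, 5.58-fold. Folds in favour of taste bud were 16.6 for sap25 (log2FC -4.05, or -4.70 without tooth replicate 0), 3.196 for fam35a and 2.79 for trmt2a. The rhobtb3 and pus10 differences did not pass (adjusted p = 0.13 each), though with total counts alone rhobtb3 passed in favour of tooth (log2FC 0.98, adjusted p = 0.013). Calls of 3 abundant genes were not kept throughout: pold2 lost its call without tooth replicate 0 or taste bud replicate 1 or 3 (adjusted p 0.0546 to 0.107), fndc9 without tooth replicate 1 or 3 (0.051 and 0.10) and with total counts alone (0.077), and tmsb4x without tooth replicate 0 or taste bud replicate 2 or 3 (0.0566 to 0.0659). Over 17 alternative fits, pold2 lost its call in 4 (up to 0.141) and tmsb4x in 4 (up to 0.0912). Features with only a locus number, for which the table gives no name, included LOC101468667 (2466, 2846 and 2644 counts in tooth, against 1, 0 and 1 in taste bud) and LOC101482684 (1516, 1453 and 1956, against 0). Higher in taste bud were LOC105941157 (0, 2 and 0 counts in tooth against 231, 298 and 652 in taste bud) and LOC105941146, which held 0.0596% to 0.128% of a tooth library and 17.1% to 21.5% of a taste bud library. Without tooth replicate 1 or 3 the log2FC of LOC105941157 was -12.02 or -9.27, against -9.94, and without taste bud replicate 2 that of LOC101468667 was 10.06, against 10.68. Without LOC105941146, 523 features passed in favour of tooth and 373 in favour of taste bud.

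Defining genes of taste cells were few in the counts. Of 23 taste receptor and presynaptic genes in the table, 14 had a count and 2 were tested. The cation channel gene trpm5, which depolarises sweet, bitter and umami cells in mammals, was at 789, 980 and 761 CPM in tooth against 4290, 4030 and 2270 CPM in taste bud. It was 3.96-fold in favour of taste bud (log2FC -2.06 with SE 0.36, adjusted p = 0.000378), and the tissues did not overlap, though tooth was not at 0. The vesicular monoamine transporter gene slc18a2 did not pass (40, 65 and 53 counts in tooth against 21, 32 and 82 in taste bud), but passed in favour of taste bud without taste bud replicate 1 (adjusted p = 0.033). Aromatic amino acid decarboxylase, ddc, the last step of serotonin synthesis, had 1, 0 and 0 counts in tooth, against 25, 6 and 19 in taste bud. Its ratio was 110 (18.8 to 4411) in favour of taste bud, and it was below the filter. The signalling genes plcb2 and itpr3, which act upstream of trpm5, ran the other way: plcb2 had 5, 6 and 9 counts in tooth against 0 in taste bud, and itpr3 had 10, 19 and 16 in tooth against 0, 1 and 0 in taste bud, giving a ratio of 20.5 (3.50 to 829) in favour of tooth.

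The tested keratinocyte genes of the surface layers were higher in taste bud. All 3 tested genes of the cornified envelope and barrier list were higher in taste bud, of 19 in the table. With no filter on low counts, 8 of 18 were higher in taste bud and 0 in tooth. Periplakin, ppl, and envoplakin, evpl, scaffold the envelope beneath the membrane of surface cells. Counts of ppl were 0, 5 and 1 in tooth against 22, 13 and 26 in taste bud, 22.3-fold higher in taste bud, and those of evpl were 3, 7 and 4 in tooth against 23, 16 and 17 in taste bud, 8.76-fold. The ppl log2FC of -4.39 was -5.90 without tooth replicate 1. The membrane-binding gene anxa1 had 24, 26 and 52 counts in tooth against 48, 13 and 79 in taste bud (log2FC -1.57, adjusted p = 0.021). Its tissues overlapped, and its call was lost without tooth replicate 0 or 1 or taste bud replicate 3 (adjusted p 0.058 to 0.123), and with total counts alone (0.080) or limma-voom (0.097). Below the filter, 15 members with a count summed to 69 counts in tooth (140 to 193 CPM per library). In taste bud they summed to 122 counts (273 to 937 CPM). Of these members 4 had no tooth count and 2 had no taste bud count. Among the 4, sciellin, scel, had 0 counts in tooth against 17, 7 and 6 in taste bud, a difference of at least 21.9-fold in favour of taste bud. The crosslinking enzyme gene tgm1 had 0 counts in tooth against 4, 2 and 12 in taste bud, at least 13.1-fold.

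Of 6 tested basal keratinocyte and adhesion genes, pkp3 alone was higher in taste bud, 0 were higher in tooth, and dsp, dst, itgb4, lama3 and perp did not pass. The desmosome gene pkp3 had 35, 24 and 33 counts in tooth against 104, 11 and 180 in taste bud, 7.02-fold (log2FC -2.72, adjusted p = 0.0037, and 0.088 with limma-voom), and its tissues overlapped. Taste bud replicate 2 was the lowest taste bud library for pkp3, perp, itgb4, dsp, dst, lama3, anxa1 and ppl. Over the whole list of 18 genes in the table, summed levels ran from 1097 to 1514 CPM in tooth and from 819 to 4065 CPM in taste bud. Without taste bud replicate 2, 4 of 7 tested members were higher in taste bud, among them pkp3 (log2FC -3.39), perp (-1.71, adjusted p = 0.016) and itgb4 (-1.77, adjusted p = 0.0135), against -1.17 for perp and -1.14 for itgb4 with all libraries. By contrast, 2 of 7 were higher in taste bud without taste bud replicate 1, 1 of 7 without replicate 3, and 0 of 6 with limma-voom. The basal cell regulator gene tp63, below the filter, had 6, 6 and 8 counts in tooth against 7, 6 and 16 in taste bud, 3.18-fold higher in taste bud. The desmosomal plaque gene dsp was at 205 ± 38.7 CPM in tooth against 259 ± 142 in taste bud (adjusted p = 0.61), and the laminin gene lama3 at 205 ± 26.1 against 172 ± 136.5 (adjusted p = 0.71).

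**Figure D4:**
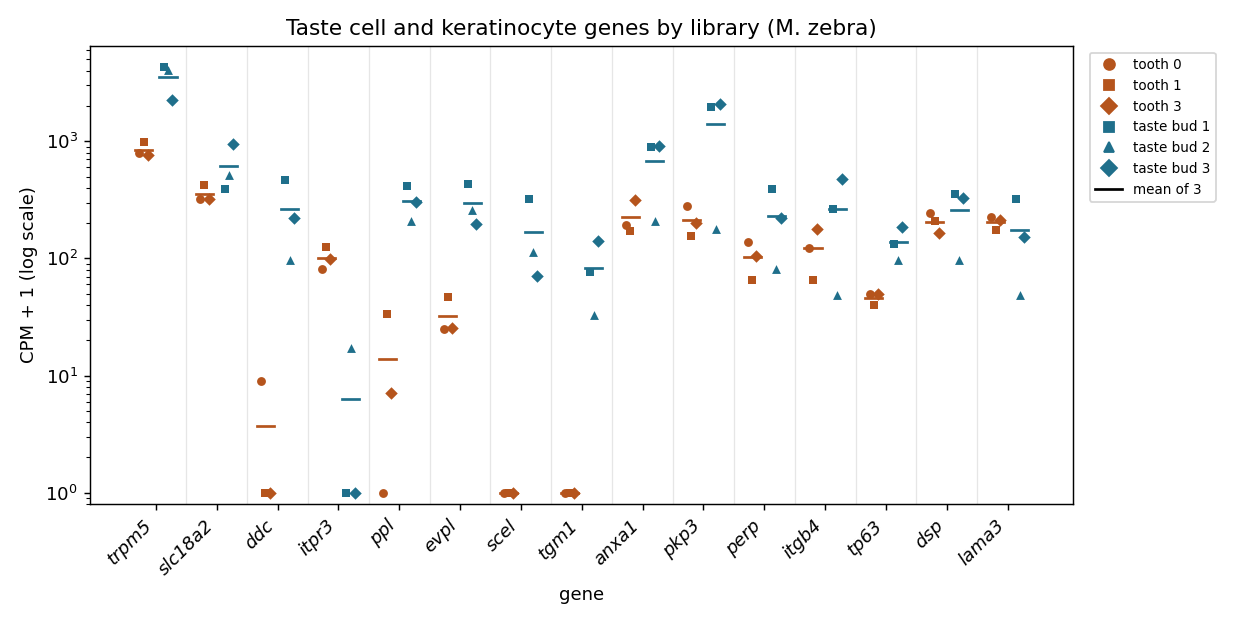
CPM + 1 on a log axis for 15 taste cell and keratinocyte genes, with 1 symbol per library, tooth left and taste bud right for each gene, and a line at the mean of 3 libraries. The taste bud triangles, replicate 2, lie lowest of the taste bud libraries for pkp3, perp, itgb4, dsp and lama3, and scel and tgm1 sit at 0 CPM, drawn at 1, in all tooth libraries.

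Markers of other cell types were counted at low levels. All 10 osteoclast genes with a count were below the filter and summed to 253 to 370.5 CPM per library in tooth and 0 to 32.1 CPM in taste bud. Among them, the integrin gene itgb3 had 27, 9 and 19 counts in tooth against 0 in taste bud, at least 8.37-fold, and the osteoclast receptor gene tnfrsf11a had 4, 6 and 4 in tooth against 0 in taste bud. Endothelial genes summed to 253 to 346 CPM in tooth against 16.1 to 46.3 in taste bud, and the 1 tested member, cldn5, had 17, 14 and 20 counts in tooth against 0, 0 and 1 in taste bud (log2FC 4.27, or 6.68 without taste bud replicate 3). Of the osteoblast list, phex was the 1 tested gene, and the other 2 with a count summed to 2 counts in tooth against 1 in taste bud. Cartilage genes summed to 22 counts (18.3 to 84.4 CPM per library) in tooth against 3 (0 to 32.1 CPM) in taste bud. Red blood cell genes summed to 10 counts (16.1 to 26.0 CPM) and 4 (16.1 to 23.2 CPM). The myelin gene mpz had 12, 15 and 12 counts in tooth, against 0, 0 and 2 in taste bud, and the neuregulin receptor gene erbb3 had 0, 1 and 1 in tooth, against 11, 0 and 5 in taste bud. Nerve and Schwann cell genes together summed to 161 to 213 CPM in tooth against 92.65 to 262 CPM in taste bud, and pigment cell genes to 110 to 129 CPM and 18.7 to 193 CPM. The muscle gene actn3, below the filter, had 7, 13 and 13 counts in tooth against 11, 6 and 18 in taste bud, and the list's 1 tested gene, ryr3, is given above. The leukocyte gene cd74 (14, 29 and 32 counts in tooth against 4, 4 and 8 in taste bud) and the ionocyte gene atp1b1 (37, 49 and 65, against 40, 23 and 31) were the single tested members of their lists, and neither passed (adjusted p = 0.095 and 0.31). The single tested member of the mucous cell list, creb3l1, did not pass (adjusted p = 0.21). It is also among the endoplasmic reticulum folding genes above, so it does not mark mucous cells alone. With total counts alone, cd74, creb3l1 and ryr3 passed (adjusted p = 0.032, 0.034 and 0.039). The part of these cell types in the differences described was not tested.

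Few ribosomal protein genes passed. Of 60 tested cytosolic ribosomal protein genes, 4 were higher in tooth, 0 were higher in taste bud and 56 did not pass, and the list's median log2FC was 0.21, beside 0.29 over all features. Under the other scalings 3 to 8 were higher in tooth, and 1 was higher in taste bud without LOC105941146. The 4 called genes were rpl22l1, rpl37a, rpl9 and rps16, and without tooth replicate 3 no member was called in either direction. Without taste bud replicate 2, 0 passed in favour of tooth and 2 in favour of taste bud, and without taste bud replicate 1 there were 4 and 3. Ribosomal protein genes held 1.84% to 2.695% of the counts of a tooth library against 1.396% to 2.18% of a taste bud library.

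**Figure D5:**
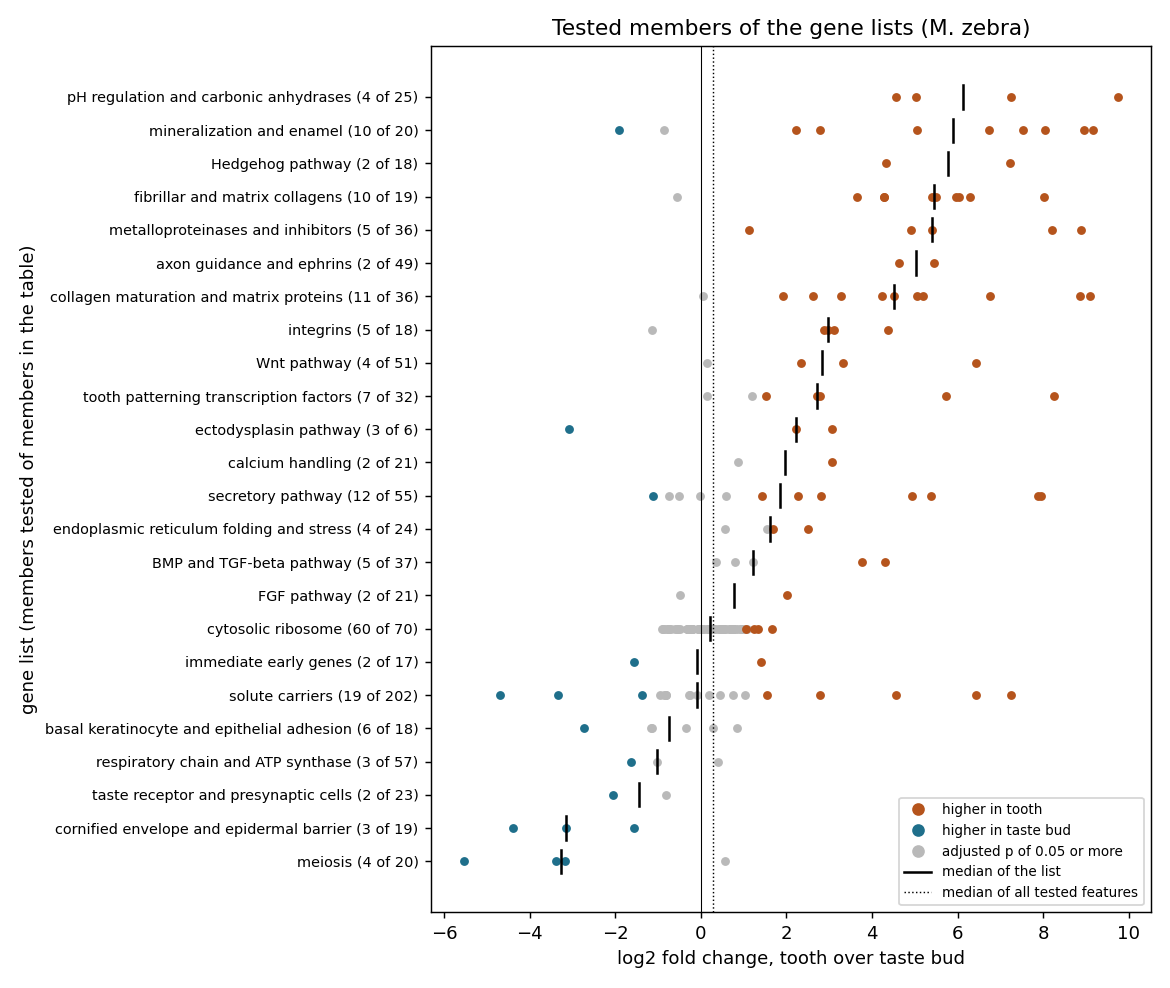
Each point is a tested member of a gene list with at least 2 tested members, at its log2 fold change, tooth over taste bud; the black bar is the list's median and the dotted line the median of all tested features, 0.29. Collagen, mineral, pH and metalloproteinase genes lie mostly to the right, cornified envelope and meiosis genes mostly to the left, and ribosomal protein genes near 0. Several mineral, pH and metalloproteinase genes had few or no taste bud counts, so the filter largely set their side. Points beyond about 7 belong to genes with 0 counts in taste bud, whose fitted values depend on the prior count.

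Libraries of 1 tissue also differed among themselves. Tooth replicate 0 held lower levels than tooth replicates 1 and 3 of collagen (col1a1 at 10841 CPM, against 17452 and 21498), of sp7 (226, against 409 and 420) and of dlx6 (40.3, against 195 and 177). It held higher levels of relt (above), of the potassium channel gene kcnh7 (2094, against 195 and 85.2 CPM) and of the lipid phosphatase gene plpp5 (1272.5, against 234 and 128). Both kcnh7 and plpp5 were chosen after their values were seen, and both had 0 taste bud counts. In taste bud, the retinoid-binding gene rbp7 ran from 96.3 CPM in replicate 2 to 506 in replicate 1 and 1367 in replicate 3. Without tooth replicate 0 and taste bud replicate 2 together, 1149 of 2375 features passed, 696 higher in tooth and 453 in taste bud. This fit was not planned, and its libraries were chosen because they lay apart. In that fit 9 of 10 collagen genes, 12 of 14 matrix protein genes and 8 of 12 mineralization genes were higher in tooth. In taste bud, 4 of 4 barrier genes and 4 of 7 adhesion genes were higher. Taste bud replicate 2 was the lowest taste bud library for several adhesion genes (above), so leaving it out raises their taste bud level.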

How the data were processed

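The authors deposited a table of raw counts at gene features, a column for each library, from a stranded mRNA kit sequenced on an Illumina instrument, per the labels' protocols. The submitters' processing notes name, without roles, limma 3.20.9, edgeR 3.6.8, HTSeq 0.6.1, SAMtools 0.19 and TopHat2 2.0.9. Genome build and annotation were not given in the sources used here. From the 26490 features, 6 libraries were filtered with filterByExpr, scaled by TMM and fitted with edgeR 4.0.16 (R 4.3.3) by the quasi-likelihood test without a block. Adjustment was by Benjamini-Hochberg across all 1839 tested features, and adjusted p-values come from edgeR unless another tool is named. CPM values use TMM-scaled totals of tested features. DESeq2 1.42.0 and limma-voom 3.58.1 were alternatives. Genes were named by rule: the 12 lowest p per direction among named genes whose tissues did not overlap, the 8 highest mean CPM per tissue, and members of 39 gene lists matched by symbol. The libraries and lists were chosen with earlier results of these data known. On simulated counts for this comparison, 16.3% of 43 genes changed 2-fold, 77.1% of 48 changed 4-fold and 100% of 49 changed 8-fold were called, and 3 of 1421 unchanged genes. Intervals cover counting error only. Some genes that these rules name are not reported here.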

Additional observations from a re-analysis of the deposited data

How the results depend on the processing

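No called gene changed direction in an alternative in which it was tested; the fits tested 779 to 931 of the 931. The number called was 2115 without a filter on low counts (1511 higher in tooth, 604 in taste bud) and 1816 with at least 5 counts in at least 3 libraries (1271 and 545), where more features were tested. Leaving out 1 library gave 780 to 1319 called, 485 to 895 higher in tooth and 295 to 447 in taste bud. The share of calls higher in tooth was 72.1% with total counts alone and 58.4% without the most abundant taste bud feature. A replicate block gave 924 calls (568 higher in tooth, 356 in taste bud) and kept 842 of the 931; with it 3 of 6 keratinocyte adhesion genes were higher in taste bud (itgb4, perp and pkp3), against 1 without it. The labels do not say that a number marks 1 fish, so libraries were not treated as paired. Deviations of same-numbered libraries correlated at 0.0802 for number 1 and 0.330 for number 3, and so few shared numbers cannot decide pairing. Of 124 called genes that are named or in lists, 54 moved over 1.5 times in fold when a library was left out and 21 lost the call. Taste bud depth limits the lower side of every tooth difference, since 1 count there is worth 11.6 CPM or more.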

Other observations

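Of 20 meiosis genes in the table, 4 were tested, 3 were higher in taste bud and the recombination gene psmc3ip did not pass (19, 9 and 17 counts in tooth against 3, 7 and 4 in taste bud). Among the 3, sycp1 and tex11 had few tooth counts and entered the test through their taste bud counts. With no filter on low counts, 3 of 14 members were called for taste bud and 0 for tooth. The synaptonemal complex gene syce1 had 35, 33 and 37 counts in tooth, against 184, 56 and 186 in taste bud, 8.89-fold higher in taste bud. The crossover gene tex11 had 8, 5 and 3 counts in tooth, against 21, 33 and 24 in taste bud (log2FC -3.38, adjusted p = 0.000298, and -3.99 without tooth replicate 0). The transverse filament gene sycp1 is described above, and the median log2FC of the 4 was -3.27. The 10 members below the filter that had a count summed to 26 counts in tooth against 8 in taste bud, from libraries that were deeper in tooth.

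Of 49 axon guidance genes, the 2 tested ones were higher in tooth. Both entered the test through their tooth counts. When no filter on low counts was used, 15 of 43 members were called for tooth and 0 for taste bud. The guidance ligand gene sema3e had 38, 36 and 43 counts in tooth, against 0, 1 and 0 in taste bud, giving a ratio of 53.4 (9.40 to 2128), and the receptor gene plxnd1, to which it binds in mammals, had 27, 20 and 18 in tooth, against 0, 1 and 0 in taste bud. Leaving out taste bud replicate 2 or 3 gave log2FC values of 7.93 or 4.63 for sema3e (5.45 with all libraries) and 7.12 or 3.82 for plxnd1 (4.63). Below the filter, 41 members summed to 677 counts in tooth and 48 in taste bud, and unc5b, a netrin receptor gene, had 10, 25 and 35 in tooth and 0 in taste bud.

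Of 19 tested solute carriers, 5 were higher in tooth, 3 were higher in taste bud and 11 did not pass, with a median log2FC of -0.09. Neither direction was called more often in this list than over all tested features. Over all features the called shares were 32.5% for tooth and 18.1% for taste bud. Higher in taste bud were slc5a10, a sugar transporter gene (3, 7 and 13 counts in tooth against 86, 118 and 49 in taste bud, 24.1-fold), slc31a2 (5, 12 and 5 against 41, 33 and 23) and slc41a3 (2.66-fold). The phosphate carrier gene slc25a3 (adjusted p = 0.036) lost its call without taste bud replicate 1 (0.150) or 2 (0.180), and without replicate 3 its log2FC was 2.25, against 1.55. Of the 14 alternative fits that tested slc25a3, 7 lost its call (adjusted p up to 0.223).

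Retinoid genes were all below the filter and summed to 92 counts (137 to 250 CPM per library) in tooth and 170 (193 to 1482 CPM) in taste bud. Of these counts, the retinol-binding gene rbp7 gave 0, 0 and 1 in tooth against 27, 6 and 118 in taste bud. Of 2 tested immediate early genes, fosl2 was higher in tooth (adjusted p = 0.035) and klf2 in taste bud (0.019). The fosl2 call was lost in each fit that left out a library except tooth replicate 1 (adjusted p up to 0.143). In all, fosl2 lost its call in 10 of 17 alternative fits (up to 0.176). The klf2 call was lost without tooth replicate 1 or 3 or taste bud replicate 3 (0.109, 0.060 and 0.052), with total counts alone (0.071) and without a filter on low counts (0.054). Of 3 tested respiratory chain genes, ndufa6 was 3.17-fold higher in taste bud (adjusted p = 0.011, and 0.089 without tooth replicate 3), and atp5s and ndufv2 did not pass. For ndufv2 the adjusted p was 0.055 (log2FC -1.02), and it passed in favour of taste bud in 7 of the alternatives, among them without taste bud replicate 2 (0.025) or 3 (0.047). The thymidylate synthase gene tyms, the 1 tested cell cycle gene, was 2.83-fold higher in tooth, with 77, 83 and 88 counts in tooth against 12, 11 and 17 in taste bud.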
